A study of Danio rerio with 9 samples.

Results

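Tubulins and microtubule regulators were followed as a group of genes across wild-type zebrafish embryos and embryos lacking maternal and zygotic *mondoa*, the gene of a glucose-sensing transcription factor. The group held 39 listed symbols: alpha-, beta- and gamma-tubulin, tubulin folding cofactors, proteins of the growing microtubule end, stathmins and severing enzymes, and microtubule motors. The symbols were listed by known function, and no measured value entered the rule, but the list was drawn up with earlier results of these data known. Of the 39 symbols, 36 had an identifier in the count table and 3 (*tuba8l*, *tubb2* and *map4*) did not, and those 36 corresponded to 38 of its 32055 rows because some names stood on a pair of rows. After the filter on low counts, 36 of the 38 identifiers were tested among 16962 genes. The 2 that failed it were *tuba8l3*, with at most 10 counts in any library, and *tubb6*, with at most 2.

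Whole embryos were sequenced in 3 groups of 3 libraries. The wild-type group carried no mutation. The other groups were MZ*mondoa* mutants homozygous for the allele ka405, a small frameshift deletion made by genome editing and inherited without a maternal contribution of intact transcript, and their embryos were separated by phenotype into those with unaffected epiboly and those with affected epiboly. The labels give a stage of 5 h after fertilization for all 9 libraries, whereas the study's methods describe collection when controls were near the end of epiboly. The difference was not resolved here. Each library was a pool of embryos. Per the study's methods, the mutants came from crosses between homozygous fish, so the wild-type embryos had other parents. Its wild-type fish descended from the AB or the golden strain, and which was used here is not given. In both comparisons with wild-type, loss of *mondoa* and other differences between the parents cannot be told apart. The mutants come from 1 allele, the affected embryos were selected by their phenotype, and nothing in the labels says that replicates came from separate clutches, so that p-values measure the spread between these libraries.

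Microtubules are hollow polymers of alpha- and beta-tubulin dimers that grow and shrink mainly at their plus ends and are nucleated by complexes containing gamma-tubulin. During epiboly, the blastoderm spreads over the yolk cell, and long microtubule arrays in the yolk are needed for this movement. Pregnenolone, a steroid made from cholesterol, stabilizes these arrays in the zebrafish and binds Clip1, a plus-end tracking protein. The abundance of the transcripts was measured here, not the microtubules themselves.

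Total counts ranged from 31249988 to 39299268 in the wild-type, from 27567897 to 30897569 in the unaffected mutants and from 29653702 to 32417640 in the affected mutants. A count of 3, taken as the detection floor, stood for 0.0762 to 0.108 CPM (counts per 1000000 counts, after scaling libraries by the trimmed mean of M values), and this covers counting error only. The mutated gene *mondoa* was lower in all 6 mutant libraries (12.8 to 21.01 CPM) than in the wild-type libraries (111, 113 and 51.9 CPM). Lists of cell type markers differed between the groups. Of all genes tested, 15.4% were called higher and 15.0% lower in affected mutants against wild-type. In affected mutants against wild-type, 6 of 9 tested yolk syncytial layer markers were called higher and none lower, and their summed level was 5785 to 6818 CPM against 4281 to 4985 CPM in the wild-type and 4449 to 4772 CPM in the unaffected mutants. None of 14 tested early neural markers was higher and 9 were lower, with summed levels of 1061 to 1207, 1283 to 1363 and 1305 to 1393 CPM in affected mutants, wild-type and unaffected mutants. Of 11 enveloping layer markers 5 were higher and 2 lower, with sums of 9561 to 10862, 10783 to 13985 and 12547 to 14504 CPM in the same order. Of 17 segmentation markers 4 were higher and 6 lower, with sums of 846 to 1046, 992 to 1188 and 959.6 to 1081 CPM. Of 13 maternal transcripts 4 were higher and 1 lower (38.5% called, near the 30.3% of all genes), with sums of 119.8 to 147, 91.1 to 116 and 92.3 to 122 CPM. Of the listed markers, *mxtx2* (yolk syncytial layer), *krt18b* (enveloping layer) and *egr2b* (hindbrain) had at most 4, 7 and 1 counts, and *mespbb* had 0 counts in every library. The part of these differences in the results on microtubule genes was not tested. In whole embryos, fewer cells of a type and less RNA per cell cannot be told apart.

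A gene was called when the Benjamini-Hochberg adjusted p of edgeR's quasi-likelihood test, fitted to all genes, was under 0.05. In unaffected mutants against wild-type, 3 of the 36 tested microtubule genes were called, that is 8.33%, against 9.60% of all genes tested. The 2 that rose were *stmn1b* and the weak copy of *tubb2b*, against 4.65% of all genes called higher. *clip2* fell, against 4.95% called lower. *stmn1b* passed the filter on low counts only through mutant libraries, which limits its calls in both comparisons with wild-type. In affected mutants against wild-type, 9 of 36 genes were called, 25% of the group against 30.3% of all genes. Here 4 genes rose (*tubb2b*, *tubb4b*, *stmn1b* and *katna1*) and 5 fell (*tubb5*, *tubg1*, *clip1a*, *clip2* and *kif5bb*), against 15.4% and 15.0% of all genes in the respective direction. In affected against unaffected mutants, none rose and only *kif5bb* fell, 2.78% of the group against 2.99% of all genes, of which 1.88% were higher and 1.11% lower. Each share was near that of all genes tested or below it. The median log2 fold change of the group was -0.01, -0.10 and -0.10 in the same order of comparisons, beside -0.01, -0.02 and -0.01 over all genes tested. With libraries scaled by their size only, 4 genes were higher and 8 lower in affected mutants against wild-type, and all genes tested shifted the same way, with 13.1% higher and 17.3% lower. The first 2 comparisons share the wild-type libraries, and each mutant group also enters the third.

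The ranges of the libraries gave a similar picture. The libraries of the groups did not overlap for 7 of 36 genes in unaffected mutants against wild-type (27.9% of all genes tested), for 16 of 36 in affected mutants against wild-type (45.1% of all genes) and for 10 of 36 in affected against unaffected mutants (25.4% of all genes). As shares of the group these were 19.4%, 44.4% and 27.8%. The first 2 counts include *stmn1b* and the weak *mapre3* row, whose wild-type libraries alone would not have passed the filter. Of the 10 genes in the last comparison, 8 were lower and 2 higher in the affected mutants. The directions of non-overlapping genes over all genes tested were not counted, so this split has no reference. Deviations of same-numbered libraries correlated positively between unaffected mutants and wild-type and between the mutant groups. Differently numbered libraries were not compared, so pairing was not shown. A fit with a replicate block called 7 microtubule genes in the first of these comparisons and 3 in the second. The same fit called 16.3% and 8.25% of all genes tested (39.3% in affected mutants against wild-type). The 3 calls in unaffected mutants against wild-type depended on single libraries. There were 0 calls without unaffected library 1 or 2, and 1 without wild-type library 2 or 3 or without affected library 1. The share of all genes called in these fits was not set beside the counts, and fewer libraries lower the power for every gene.

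**Figure D1:**
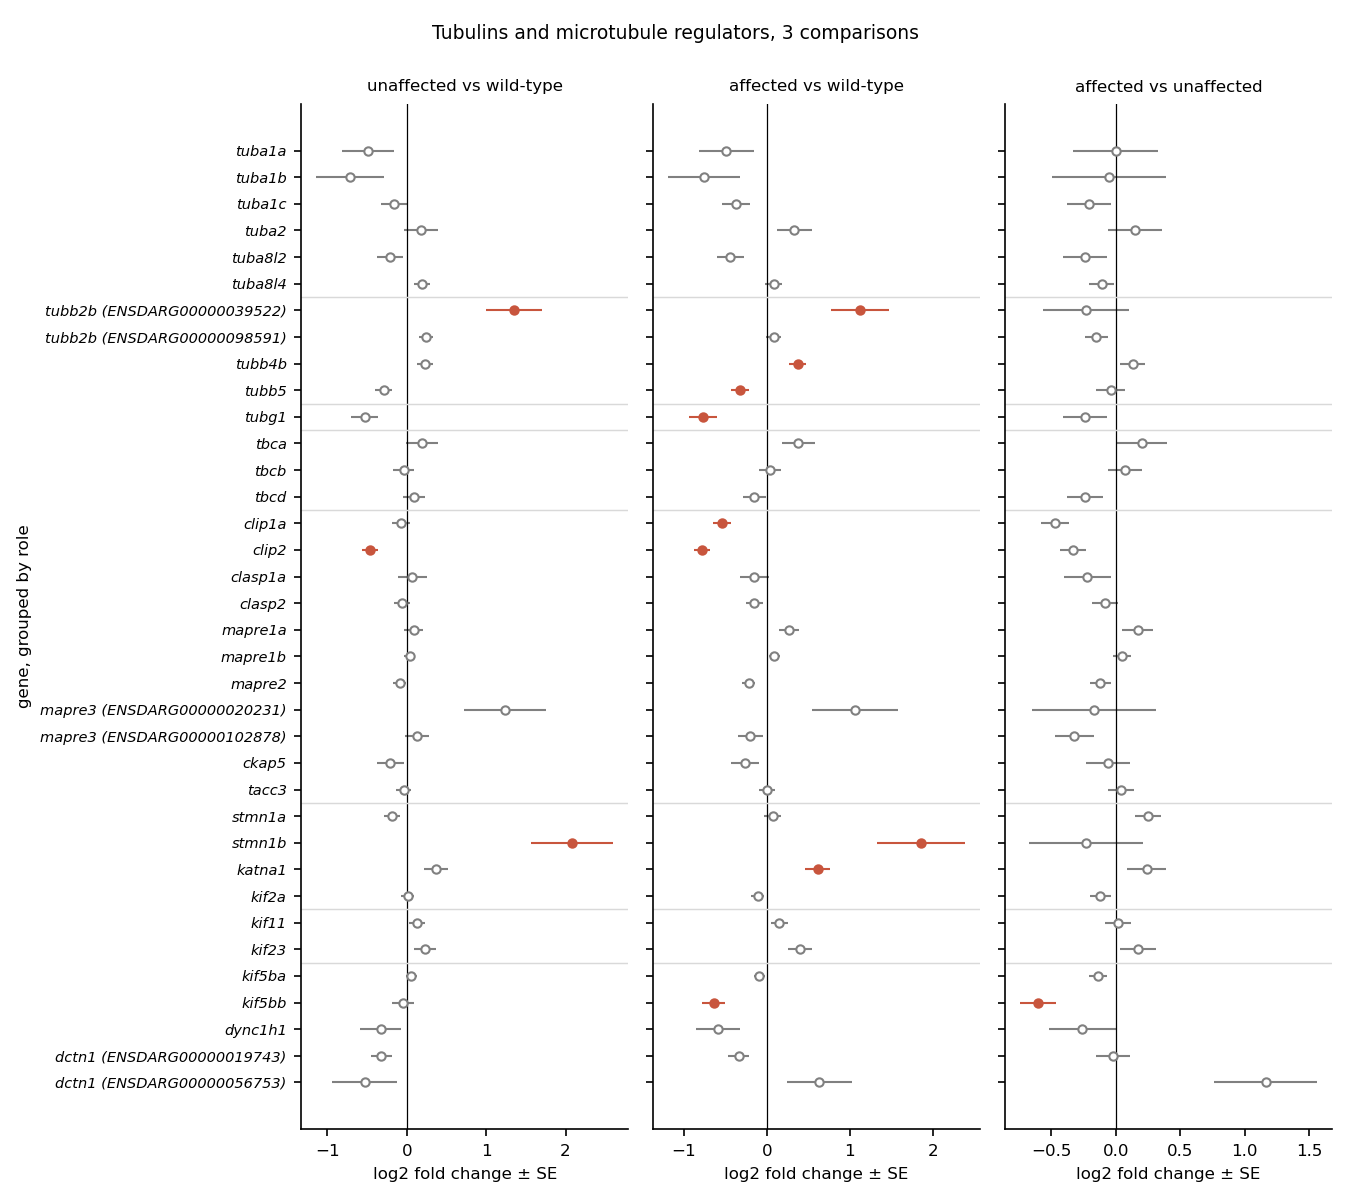
Log2 fold change (horizontal axis, log2 units) of the 36 tested tubulins and microtubule regulators, grouped by role on the vertical axis, in the 3 comparisons, each panel with its own scale. Points are fitted values, bars are ± 1 standard error from edgeR, and filled red points are genes with an adjusted p under 0.05: 3, 9 and 1 of 36 from left to right.

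Alpha-tubulin, the minus-end facing subunit of the dimer, had most of its counts on 1 gene among the listed identifiers. *tuba8l4* (ENSDARG00000006260) took 96.2 to 97.8% of the counts on the 7 alpha-tubulin identifiers of the group, not divided by transcript length. Its level was 1552, 1673 and 1864 CPM in the wild-type, 1762, 1949 and 2093 CPM in unaffected mutants and 1669, 1817 and 1887 CPM in affected mutants. The 3 ranges overlapped, and the log2 fold changes against wild-type were 0.19 (SE 0.10, adjusted p = 0.292) and 0.08 (SE 0.10, adjusted p = 0.603). The remaining alpha-tubulin identifiers together amounted to 47.2 to 71.1 CPM in the wild-type, 44.4 to 60.3 CPM in unaffected mutants and 43.2 to 52.7 CPM in affected mutants.

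None of the 6 tested alpha-tubulin genes was called in the main edgeR fit or by DESeq2 in any comparison. Of all genes tested, edgeR called 9.60%, 30.3% and 2.99% in the 3 comparisons, and DESeq2 called 13.3%, 32.1% and 7.08%. With 6 genes, the absence of calls is not read as a result about alpha-tubulin. The number with an unadjusted p under 0.05 was 0 in unaffected mutants against wild-type, 2 in affected mutants against wild-type and 0 between the mutant groups. For this and later counts at an unadjusted p, the share of all genes tested was not counted. In affected mutants against wild-type, log2 fold changes were -0.49 for *tuba1a*, -0.76 for *tuba1b*, -0.37 for *tuba1c*, 0.33 for *tuba2* and -0.44 for *tuba8l2*, with standard errors of 0.33, 0.43, 0.17, 0.21 and 0.16. The corresponding values in unaffected mutants against wild-type were -0.49, -0.71, -0.16, 0.18 and -0.21. Wild-type library 2 stood apart for several of these genes: *tuba1b* was 1.60 CPM there against 4.71 and 4.96 CPM in the other wild-type libraries, and *tuba2* was 7.97 against 5.17 and 4.45 CPM. Without that library, the adjusted p in affected mutants against wild-type was 0.036 for *tuba1b*, 0.0492 for *tuba1c*, 0.0235 for *tuba2* and 0.0369 for *tuba8l2*. For *tuba8l2* it was also 0.0458 without unaffected library 3 and 0.0468 without affected library 3. With all libraries, *tuba8l2* had an adjusted p of 0.00688 with a replicate block and of 0.0462 when scaled by library size only.

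Beta-tubulin, the subunit that binds exchangeable GTP and faces the growing end, also came mostly from 1 row among the listed identifiers. The name *tubb2b* stood on a pair of rows, and the strong one (ENSDARG00000098591) took 89.4 to 91.8% of the counts on the 5 beta-tubulin identifiers. It measured 688, 757 and 835 CPM in the wild-type, 834, 906 and 949 CPM in unaffected mutants and 777, 809 and 831 CPM in affected mutants. The unaffected libraries met the wild-type range only at its upper end. The log2 fold change in unaffected mutants was 0.24 (SE 0.09, adjusted p = 0.148), and the adjusted p was 0.0304 in the fit with a replicate block. In affected mutants against wild-type it was 0.08 (SE 0.09, adjusted p = 0.536). All affected libraries lay below all unaffected ones, with a log2 difference of -0.15 (SE 0.09, adjusted p = 0.433).

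The weak *tubb2b* row (ENSDARG00000039522) rose in both mutant groups. It had 16, 17 and 19 counts in the wild-type, 36, 40 and 34 in unaffected mutants and 30, 47 and 19 in affected mutants, or 0.492, 0.494 and 0.483 CPM, 1.29, 1.41 and 1.07 CPM, and 1.03, 1.58 and 0.595 CPM. Every mutant library lay above every wild-type library, although affected library 3 stayed close to them. The log2 fold change was 1.35 in unaffected mutants (SE 0.35, adjusted p = 0.0376) and 1.12 in affected mutants (SE 0.35, adjusted p = 0.0365). Without wild-type library 1, 2 or 3 the adjusted p was 0.0914, 0.0818 and 0.0714 in unaffected mutants and 0.0814, 0.0765 and 0.0729 in affected mutants. In unaffected mutants it was 0.102 and 0.117 without unaffected library 1 or 2 and 0.0576 without affected library 1. In affected mutants it was 0.0539 without unaffected library 1, and 0.0775 and 0.154 without affected library 1 or 2.

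*tubb4b* (ENSDARG00000002344), a widely expressed beta-tubulin isotype in vertebrates, rose in affected mutants. It measured 57.7, 60.1 and 62.6 CPM in the wild-type, 62.4, 76.3 and 73.6 CPM in unaffected mutants and 70.9, 75.4 and 86.2 CPM in affected mutants. The affected libraries all lay above the wild-type libraries, and the unaffected libraries overlapped both. The log2 fold change was 0.37 in affected mutants (SE 0.10, adjusted p = 0.0244) and 0.23 in unaffected mutants (SE 0.10, adjusted p = 0.195). Without wild-type library 1 or 2 or affected library 3, the adjusted p in affected mutants was 0.076, 0.0565 and 0.0811.

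*tubb5* (ENSDARG00000037997), another beta-tubulin isotype, fell in affected mutants. It measured 12.3, 13.8 and 13.6 CPM in the wild-type, 10.8, 11.2 and 10.6 CPM in unaffected mutants and 9.79, 10.4 and 11.5 CPM in affected mutants. All 6 mutant libraries lay below the wild-type libraries. The fall of 0.32 on the log2 scale in affected mutants (SE 0.11) had an adjusted p of 0.047, and leaving out any of the 9 libraries took it to between 0.05 and 0.163. In unaffected mutants the log2 difference was -0.29 (SE 0.11, adjusted p = 0.135).

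Tubulin copies resemble each other, and the authors counted read pairs with a unique placement. The split between near-identical copies is therefore uncertain, and sums over a family depend less on it. Pairs that fit more than 1 place were not counted and are missing from the sums too. With 96.2 to 97.8% of alpha-tubulin and 89.4 to 91.8% of beta-tubulin counts on 1 row each, the sums largely repeat these rows. The sums cover the listed identifiers and leave out, among others, *tuba5* (245 ± 33.8, 274 ± 22.9 and 285 ± 11.3 CPM in wild-type, unaffected and affected mutants) and *tuba4l*. Summed alpha-tubulin was 1756 ± 164 CPM in the wild-type, 1985 ± 173 CPM in unaffected mutants and 1838 ± 116 CPM in affected mutants (SD, n = 3). Summed beta-tubulin was 834 ± 76.9, 979 ± 64.3 and 895 ± 35.5 CPM. Unlisted tubulin rows such as *tubb1*, *zgc:55461* and *zgc:65894* were not added to it in any alternative. How much of all beta-tubulin this sum covers was therefore not determined. The log2 ratio in unaffected mutants against wild-type was 0.18 for alpha-tubulin (exact permutation p = 0.2) and 0.23 for beta-tubulin (exact permutation p = 0.2). In affected mutants against wild-type it was 0.07 (exact permutation p = 0.6) and 0.10 (exact permutation p = 0.3), and between affected and unaffected mutants it was -0.11 (exact permutation p = 0.3) and -0.13 (exact permutation p = 0.2). The tests were two-sided, and 3 libraries against 3 cannot give a p below 0.1. Within same-numbered pairs, unaffected mutants exceeded wild-type by 196, 274 and 219 CPM for alpha-tubulin and by 151, 163 and 123 CPM for beta-tubulin. Affected minus unaffected mutants gave -96.9, -133 and -214 CPM for alpha-tubulin and -49.95, -99.1 and -105 CPM for beta-tubulin. All 3 pairs had the same sign in each of these 4 cases, for which the exact permutation p over pairs was 0.25, the smallest that 3 pairs allow. With the 4 other alpha-tubulin genes of the lists added, the alpha-tubulin sums were 2017 ± 155, 2265 ± 182 and 2128 ± 113 CPM, with log2 ratios of 0.17, 0.08 and -0.09 in the same order of comparisons (exact permutation p = 0.2, 0.5 and 0.4).

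**Figure D2:**
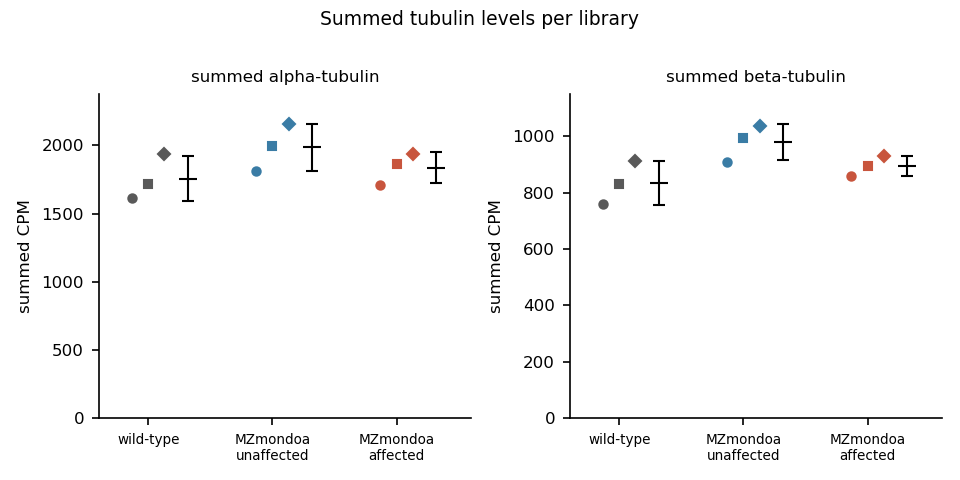
Summed CPM (vertical axis, from 0) of the alpha-tubulin and beta-tubulin identifiers in each library, by group on the horizontal axis. Circles, squares and diamonds are replicates 1, 2 and 3, and the black line and bars are the mean ± SD of 3 libraries; the group means run from 1756 to 1985 CPM for alpha-tubulin and from 834 to 979 CPM for beta-tubulin.

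*tubg1* (ENSDARG00000015610), the gamma-tubulin that nucleates microtubules at centrosomes and other organizing centres, was lower in affected mutants. It measured 26.3, 37.5 and 31.4 CPM in the wild-type, 26.3, 21.8 and 17.9997 CPM in unaffected mutants and 21.1, 17.4 and 17.3 CPM in affected mutants. All 6 mutant libraries lay below the wild-type libraries, unaffected library 1 by little. It fell to 0.585 of the wild-type level in affected mutants, a log2 fold change of -0.77 (SE 0.17, adjusted p = 0.00716). In unaffected mutants the log2 difference was -0.53 (SE 0.17, adjusted p = 0.0766), with an adjusted p of 0.0493 under the replicate block and of 0.041 in DESeq2. Between the mutant groups it was -0.24 (SE 0.17, adjusted p = 0.49).

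The tubulin folding cofactors *tbca*, *tbcb* and *tbcd* assemble alpha- and beta-tubulin into dimers. They were not called in any comparison by the main edgeR fit or DESeq2, and 0 of the 3 had an unadjusted p under 0.05. Of all genes tested, edgeR called 9.60%, 30.3% and 2.99% in the 3 comparisons, and 3 genes are few to set beside these shares. Log2 fold changes in affected mutants against wild-type were 0.38, 0.04 and -0.15 (SE 0.20, 0.13 and 0.14). In unaffected mutants they were 0.19, -0.04 and 0.09. Wild-type library 3 was the highest of its group for *tbca*, at 10.6 CPM against 8.03 and 5.79 CPM, and without it the adjusted p in affected mutants was 0.0309.

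Both CLIP genes, whose proteins ride on growing plus ends and link them to other cell structures, fell in affected mutants. *clip2* (ENSDARG00000059596), coding for a CLIP protein known from the mammalian brain, was 67.2, 59.2 and 72.4 CPM in the wild-type, 45.4, 49.1 and 50.2 CPM in unaffected mutants and 35.8, 39.8 and 39.9 CPM in affected mutants. The 3 groups did not overlap, with the unaffected mutants between the others. It fell to 0.728 of the wild-type level in unaffected mutants, a log2 fold change of -0.46 (SE 0.10, adjusted p = 0.0164), and to 0.581 in affected mutants, a log2 fold change of -0.78 (SE 0.10, adjusted p = 0.000465). Between the mutant groups the log2 difference was -0.33 (SE 0.10, adjusted p = 0.106), and the adjusted p was 0.0461 with the replicate block. The call in unaffected mutants was lost without unaffected library 1 (adjusted p = 0.075) or 2 (adjusted p = 0.0556).

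*clip1a* (ENSDARG00000078722), taken as the only row named CLIP1, codes for the pregnenolone-binding member of the family. It measured 39.7, 37.2 and 43.2 CPM in the wild-type, 38.9, 35.3 and 40.6 CPM in unaffected mutants and 27.98, 23.9 and 30.96 CPM in affected mutants. The affected libraries lay below all 6 others, whereas the unaffected and wild-type libraries overlapped. It fell to 0.69 of the wild-type level in affected mutants, a log2 fold change of -0.54 (SE 0.11, adjusted p = 0.00631), and the log2 difference in unaffected mutants was -0.07 (SE 0.11, adjusted p = 0.769). Between affected and unaffected mutants it was -0.47 (SE 0.11), with an adjusted p of 0.0585, of 0.00688 with the replicate block and of 0.00958 in DESeq2. The summed early neural markers were also lower in the affected libraries than in all others, and their part in the CLIP results was not tested.

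**Figure D3:**
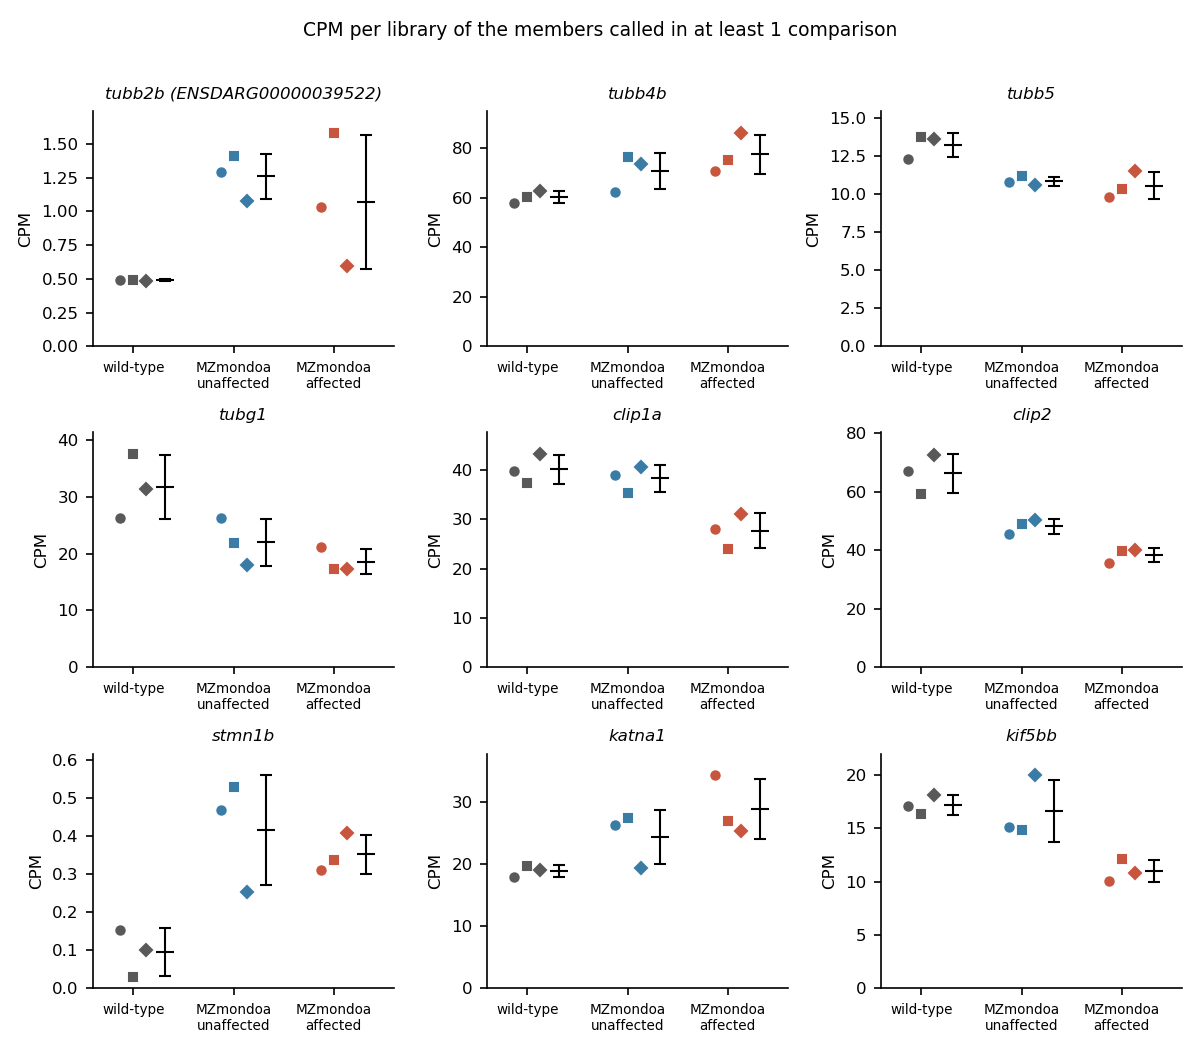
Level in CPM (vertical axes, each from 0) of the 9 tubulins and microtubule regulators called in at least 1 comparison, by library and group. Circles, squares and diamonds are replicates 1, 2 and 3, and the black line and bars are the mean ± SD of 3 libraries; *clip2* steps down over the 3 groups, whereas *clip1a* and *kif5bb* are low in the affected mutants, at 23.9 to 30.96 and 10.1 to 12.1 CPM.

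The other 9 tested plus-end genes were not called by edgeR in any comparison. Of all 11 plus-end genes, 2, 4 and 2 had an unadjusted p under 0.05 in unaffected mutants against wild-type, affected mutants against wild-type and affected against unaffected mutants, and DESeq2 called 1, 2 and 1, against 13.3%, 32.1% and 7.08% of all genes tested. The 9 were the CLASP rescue factors, the EB proteins that recruit most other plus-end proteins, the polymerase *ckap5* and its partner *tacc3*. Among the EB genes, *mapre1b* was 351, 368 and 349 CPM in the wild-type, 366, 377 and 354 CPM in unaffected mutants and 370.0, 389 and 377 CPM in affected mutants. Its affected libraries lay just above the wild-type range, with a log2 difference of 0.09 (SE 0.07, adjusted p = 0.395). *mapre1a* was 18.3, 18.7 and 14.9 CPM in the wild-type, 17.9, 19.1 and 18.4 CPM in unaffected mutants and 18.8, 21.9 and 21.7 CPM in affected mutants (log2 difference of affected mutants against wild-type 0.27, SE 0.12, adjusted p = 0.107). *mapre2* was 46.5, 41.4 and 44.6 CPM, 42.4, 40.5 and 41.3 CPM, and 36.8, 38.2 and 38.9 CPM in the same groups. Its affected libraries lay below all others, with a log2 difference of -0.22 against wild-type (SE 0.08, adjusted p = 0.0641, and 0.0309 when scaled by library size only).

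The name *mapre3* stood on a pair of rows, and which of them is the listed *mapre3a* was not determined. The weak row (ENSDARG00000020231) had 2, 10 and 15 counts in the wild-type, 15, 24 and 13 in unaffected mutants and 12, 15 and 21 in affected mutants, that is 0.0615, 0.291 and 0.381 CPM, 0.539, 0.844 and 0.411 CPM, and 0.413, 0.505 and 0.658 CPM. The mutant libraries lay above the wild-type libraries on few counts, with log2 differences of 1.24 (SE 0.52, adjusted p = 0.166) and 1.06 (SE 0.52, adjusted p = 0.15). The wild-type libraries of this row alone would not have passed the filter. The stronger row (ENSDARG00000102878) had log2 differences of 0.13 (SE 0.15) in unaffected and -0.20 (SE 0.15) in affected mutants. For *clasp1a*, *clasp2*, *ckap5* and *tacc3* the log2 differences in affected mutants were -0.15, -0.15, -0.26 and 0.00 (SE 0.18, 0.10, 0.17 and 0.10). In unaffected mutants they were 0.07, -0.06, -0.21 and -0.04.

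Among the genes whose proteins take microtubules apart, *katna1* (ENSDARG00000021827) rose in affected mutants. It codes for the catalytic subunit of katanin, which cuts microtubules along their length. Its level was 17.9, 19.8 and 19.1 CPM in the wild-type, 26.4, 27.5 and 19.5 CPM in unaffected mutants and 34.4, 27.05 and 25.3 CPM in affected mutants. The affected libraries all lay above the wild-type, and unaffected library 3 lay within the wild-type range. The rise was 1.53-fold in affected mutants, a log2 fold change of 0.61 (SE 0.15, adjusted p = 0.0141, and 0.0575 without affected library 1). In unaffected mutants the log2 difference was 0.37 (SE 0.15, adjusted p = 0.168, and 0.0438 without unaffected library 3).

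Stathmin-1 proteins bind tubulin dimers and promote the shrinking of microtubules. The row taken as *stmn1b* (ENSDARG00000033655) rose in both mutant groups, from 5, 1 and 4 counts in the wild-type to 13, 15 and 8 counts in unaffected mutants and 9, 10 and 13 counts in affected mutants. These counts correspond to 0.154, 0.0291 and 0.102 CPM, 0.467, 0.528 and 0.253 CPM, and 0.310, 0.336 and 0.407 CPM. No mutant library overlapped with the wild-type, but wild-type library 2 was under the floor of 3 counts and no library passed 15 counts. No wild-type library reached the level the filter asks for. The row was tested only through mutant libraries, so its rise is not independent of the filter. The log2 fold change was 2.08 in unaffected mutants (SE 0.52, adjusted p = 0.0318) and 1.86 in affected mutants (SE 0.53, adjusted p = 0.0235). In unaffected mutants the adjusted p was 0.0772 and 0.0649 without wild-type library 2 or 3, 0.102 and 0.117 without unaffected library 1 or 2, and 0.0507 and 0.053 without affected library 1 or 2. In affected mutants it was 0.0638 and 0.0511 without wild-type library 2 or 3 and 0.0578 and 0.0693 without affected library 2 or 3.

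The far more highly counted row *stmn1a* was not called. It measured 117, 112 and 139 CPM in the wild-type, 103, 112 and 110.2 CPM in unaffected mutants and 119, 130.1 and 137 CPM in affected mutants. The affected libraries lay above the unaffected ones (log2 difference 0.25, SE 0.10, adjusted p = 0.219) and within the wild-type range. *kif2a*, a kinesin that depolymerizes microtubule ends, was 67.7, 65.1 and 60.8 CPM in the wild-type, 70.4, 63.7 and 60.7 CPM in unaffected mutants and 60.6, 58.8 and 60.3 CPM in affected mutants. The affected libraries lay narrowly below the others, with a log2 difference of -0.11 against wild-type (SE 0.08, adjusted p = 0.366).

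Of the mitotic kinesins, *kif11* slides the spindle poles apart and *kif23* bundles the central spindle. Neither was called by edgeR. *kif23* was 263, 269 and 266 CPM in the wild-type, 324, 367 and 246 CPM in unaffected mutants and 389, 359 and 307 CPM in affected mutants. All affected libraries lay above the wild-type, whereas unaffected library 3 was the lowest of all 9. The log2 difference in affected mutants was 0.40 (SE 0.14), with an adjusted p of 0.0536 that passed the threshold in DESeq2 (adjusted p = 0.0337), in a fit of the 6 compared libraries alone (0.0205), without the filter (0.0467), and without unaffected library 2 (0.0366), unaffected library 3 (0.0135) or affected library 3 (0.0416). *kif11* had log2 differences of 0.13 in unaffected and 0.15 in affected mutants (SE 0.10 in both).

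Among the transport motors, *kif5bb* fell in affected mutants, both against wild-type and against unaffected mutants. The gene (ENSDARG00000103394) was taken as the KIF5B row that the study did not name *kif5ba*, and codes for a heavy chain of conventional kinesin, which walks towards plus ends. It measured 17.1, 16.3 and 18.1 CPM in the wild-type, 15.1, 14.8 and 20.02 CPM in unaffected mutants and 10.1, 12.1 and 10.8 CPM in affected mutants. The affected libraries lay below all 6 others. It fell to 0.641 of the wild-type level, a log2 fold change of -0.64 (SE 0.14, adjusted p = 0.00678), and to 0.662 of the unaffected level, a log2 fold change of -0.60 (SE 0.14, adjusted p = 0.0495). The second of these calls was narrow. Its adjusted p was 0.0703 and 0.064 without wild-type library 1 or 2, 0.0964 and 0.142 without unaffected library 1 or 3, and 0.174, 0.113 and 0.111 without affected library 1, 2 or 3, so that 0 microtubule genes were called between the mutant groups in these fits, and 5 had an unadjusted p under 0.05 with all libraries. In unaffected mutants against wild-type the log2 difference was -0.05 (SE 0.14, adjusted p = 0.876).

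The related *kif5ba* was not called and measured 220.2, 212 and 228 CPM in the wild-type, 227, 240.1 and 221 CPM in unaffected mutants and 205, 210.2 and 208 CPM in affected mutants. The affected libraries lay just below the others, with a log2 difference of -0.09 against wild-type (SE 0.07, adjusted p = 0.42). *dync1h1*, the heavy chain of cytoplasmic dynein that walks towards minus ends, spread widely within groups, from 50.9 to 94.4 CPM in the wild-type, from 43.7 to 78.5 CPM in unaffected mutants and from 38.98 to 58.6 CPM in affected mutants. Library 3 was the lowest of each group. Its log2 differences were -0.33 in unaffected mutants (SE 0.26, adjusted p = 0.478, and 0.0323 with the replicate block) and -0.59 in affected mutants (SE 0.26, adjusted p = 0.116, and 0.0246 without wild-type library 3).

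The name *dctn1*, for the large dynactin subunit that tethers dynein to microtubules, stood on a pair of rows, and which was *dctn1a* and which *dctn1b* was not determined. The strong row (ENSDARG00000019743) ranged from 39.5 to 49.9 CPM in the wild-type, from 30.9 to 40.3 CPM in unaffected mutants and from 31.4 to 39.97 CPM in affected mutants. Both mutant groups overlapped with the lowest wild-type library. The log2 differences were -0.32 in unaffected mutants (SE 0.13, adjusted p = 0.17, and 0.0381 with the replicate block) and -0.34 in affected mutants (SE 0.13, adjusted p = 0.0775, 0.0489 without wild-type library 3 and 0.0421 when scaled by library size only). The weak row (ENSDARG00000056753) ranged from 1.02 to 2.999 CPM, from 0.790 to 1.79 CPM and from 2.41 to 3.43 CPM in the same order. Its log2 difference in affected against unaffected mutants was 1.16 (SE 0.40, adjusted p = 0.158), and the adjusted p against wild-type, 0.249 with all libraries, was 0.0291 without wild-type library 3.

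To place the group among its pathway, 155 other identifiers of microtubule genes were counted, of which 135 were tested. In unaffected mutants against wild-type 4 rose and 4 fell (5.93% of the 135), in affected mutants against wild-type 21 rose and 15 fell (26.7%), and in affected against unaffected mutants 3 rose and none fell (2.22%). The shares were again near or below those of all genes, 9.60%, 30.3% and 2.99%. The split in affected mutants depended on the scaling, with 13 higher and 23 lower when libraries were scaled by their size only, a scaling that moved the calls over all genes tested towards lower as well. With a replicate block, 21 genes were called in unaffected mutants against wild-type and 13 between the mutant groups, in a fit that called 16.3% and 8.25% of all genes tested. Single libraries moved the counts: there were 3, 3 and 14 calls in unaffected mutants without unaffected library 1, 2 or 3, and 21, 18 and 19 in affected mutants without wild-type library 1, affected library 1 or affected library 2. Between the mutant groups there were 0 without unaffected library 1 or 3 or affected library 1 or 2, 1 without affected library 3 and 5 without wild-type library 3. These counts, too, stand without the share of all genes called in the same fits.

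By role, the calls in affected mutants against wild-type were spread over all the lists of other microtubule genes. Of all genes tested, 15.4% were called higher and 15.0% lower in this comparison, and the lists are small. None rose and 2 fell of 7 other tubulins, 3 rose and 3 fell of 17 genes of the gamma-tubulin ring and augmin complexes, and none rose and 2 fell of 20 genes for tubulin folding and modification. Of 27 other plus-end and lattice proteins 4 rose and 5 fell, and of 8 other stathmins and severing factors 2 rose and none fell. Of 15 spindle motors and bundlers 3 rose and none fell, of 15 transport kinesins 4 rose and 2 fell, and of 26 dynein and dynactin genes 5 rose and 1 fell.

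A pair of tubulins outside the listed group fell in both mutant groups. *tuba4l*, an alpha-tubulin relative, measured 15.1, 14.6 and 16.3 CPM in the wild-type, 5.46, 6.30 and 4.20 CPM in unaffected mutants and 5.27, 5.55 and 4.83 CPM in affected mutants. All mutant libraries lay far below the wild-type and the mutant groups overlapped. It fell to 0.347 of the wild-type level in unaffected mutants (log2 fold change -1.53, SE 0.16, adjusted p = 0.000339) and to 0.340 in affected mutants (log2 fold change -1.55, SE 0.16, adjusted p = 0.000155). *tubd1*, the delta-tubulin of centrioles, measured 12.8, 5.90 and 11.1 CPM, 2.66, 2.53 and 3.09 CPM, and 2.58, 2.56 and 3.54 CPM in the same order. The wild-type libraries varied by more than the mutant libraries but lay above all of them. Its log2 fold change was -1.85 in unaffected mutants (SE 0.28, adjusted p = 0.00277) and -1.78 in affected mutants (SE 0.28, adjusted p = 0.00134).

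*haus1*, a subunit of the augmin complex that branches spindle microtubules, measured 14.1, 16.9 and 19.1 CPM in the wild-type, 10.5, 11.2 and 11.97 CPM in unaffected mutants and 9.79, 9.65 and 9.68 CPM in affected mutants. It fell by 0.57 on the log2 scale in unaffected mutants (SE 0.13, adjusted p = 0.0191, but 0.0818 and 0.0681 without unaffected library 1 or 2). *mzt2b*, a small protein of the gamma-tubulin ring complex, measured 12.5, 13.8 and 7.80 CPM, 21.6, 19.1 and 21.2 CPM, and 23.8, 24.7 and 21.2 CPM. It rose in unaffected mutants with a log2 fold change of 0.86 (SE 0.18, adjusted p = 0.017, and 0.0615 without unaffected library 1). For both genes the mutant groups lay on 1 side of the wild-type without overlap. In affected mutants against wild-type, both calls held in all 16 alternative fits. There the log2 fold change of *haus1* was -0.89 to -0.68 (adjusted p at most 0.00958). That of *mzt2b* was 0.82 to 1.20 (adjusted p at most 0.0136).

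Further rises in both mutant groups were on weakly expressed motor genes. *dync1i2b*, an intermediate chain of cytoplasmic dynein, measured 0.431, 0.116 and 0.305 CPM in the wild-type, 0.862, 1.09 and 0.916 CPM in unaffected mutants and 1.45, 1.14 and 1.19 CPM in affected mutants. The groups were in ascending order without overlap, but the wild-type libraries alone would not have passed the filter on low counts. Its log2 fold change was 1.74 in unaffected mutants (SE 0.38, adjusted p = 0.0189, and 0.0515 and 0.0712 without unaffected library 1 or 2) and 2.14 in affected mutants (SE 0.38, adjusted p = 0.0025). *kif17*, a kinesin of cilia and dendrites in other animals, measured 0.800, 0.872 and 0.712 CPM, 1.69, 2.22 and 1.39 CPM, and 2.58, 2.05 and 1.57 CPM. Its log2 fold change was 1.15 in unaffected mutants (SE 0.27, adjusted p = 0.0256) and 1.38 in affected mutants (SE 0.27, adjusted p = 0.00415). The former call was lost without wild-type library 1 or 3 (adjusted p = 0.0672 and 0.0617) or unaffected library 1 or 2 (0.0683 and 0.105).

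Of the lattice proteins, *map1b* and *maptb* were the called genes of the largest fall and among the largest rises in affected mutants. *map1b*, which binds microtubules in growing axons, measured 21.2, 16.6 and 12.96 CPM in the wild-type, 12.00, 3.55 and 12.2 CPM in unaffected mutants and 2.93, 3.63 and 7.46 CPM in affected mutants. It fell by 1.85 on the log2 scale in affected mutants (SE 0.46, adjusted p = 0.0131, and 0.057 and 0.0586 without affected library 1 or 2). *maptb*, a zebrafish tau gene, measured 15.01, 15.00 and 4.14 CPM, 16.7, 14.5 and 9.03 CPM, and 34.7, 36.97 and 21.1 CPM. It rose in affected mutants with a log2 fold change of 1.44 (SE 0.43, adjusted p = 0.028, and 0.0819 and 0.0907 without affected library 1 or 2). Library 3 was the lowest of each group for *maptb*.

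Between the mutant groups, the 3 genes called were *ndel1b* and *dynll1*, a regulator and a light chain of dynein, and *katnbl1*, a relative of the katanin regulatory subunit. *ndel1b* measured 14.4, 14.9 and 13.9 CPM in the wild-type, 20.2, 21.9 and 15.4 CPM in unaffected mutants and 32.5, 36.3 and 27.2 CPM in affected mutants. *dynll1* measured 28.3, 27.97 and 32.00 CPM, 28.2, 33.5 and 23.8 CPM, and 45.4, 42.9 and 41.3 CPM, and *katnbl1* measured 29.4, 31.4 and 30.2 CPM, 40.02, 37.3 and 34.6 CPM, and 53.6, 48.5 and 50.3 CPM. The affected libraries lay above all others for each gene, and the 3 groups did not overlap for *ndel1b* and *katnbl1*. The log2 fold changes in affected against unaffected mutants were 0.74 (SE 0.15, adjusted p = 0.0295), 0.60 (SE 0.12, adjusted p = 0.0332) and 0.45 (SE 0.09, adjusted p = 0.0287). Leaving out single libraries of the mutant groups raised the adjusted p of *ndel1b* to 0.0936 (unaffected 1), 0.08 (unaffected 3), 0.111 (affected 1) and 0.127 (affected 2). That of *dynll1* rose to 0.114 and 0.0918 without unaffected library 1 or 3, and to 0.132, 0.117 and 0.062 without affected library 1, 2 or 3. That of *katnbl1* rose to 0.0701, 0.0591 and 0.0999 without unaffected library 1, 2 or 3, and to 0.124, 0.086 and 0.0668 without affected library 1, 2 or 3. Against wild-type, all 3 rose in affected mutants, with log2 fold changes of 1.15 (adjusted p = 0.000554), 0.55 (adjusted p = 0.00821) and 0.74 (adjusted p = 0.000357).

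**Figure D4:**
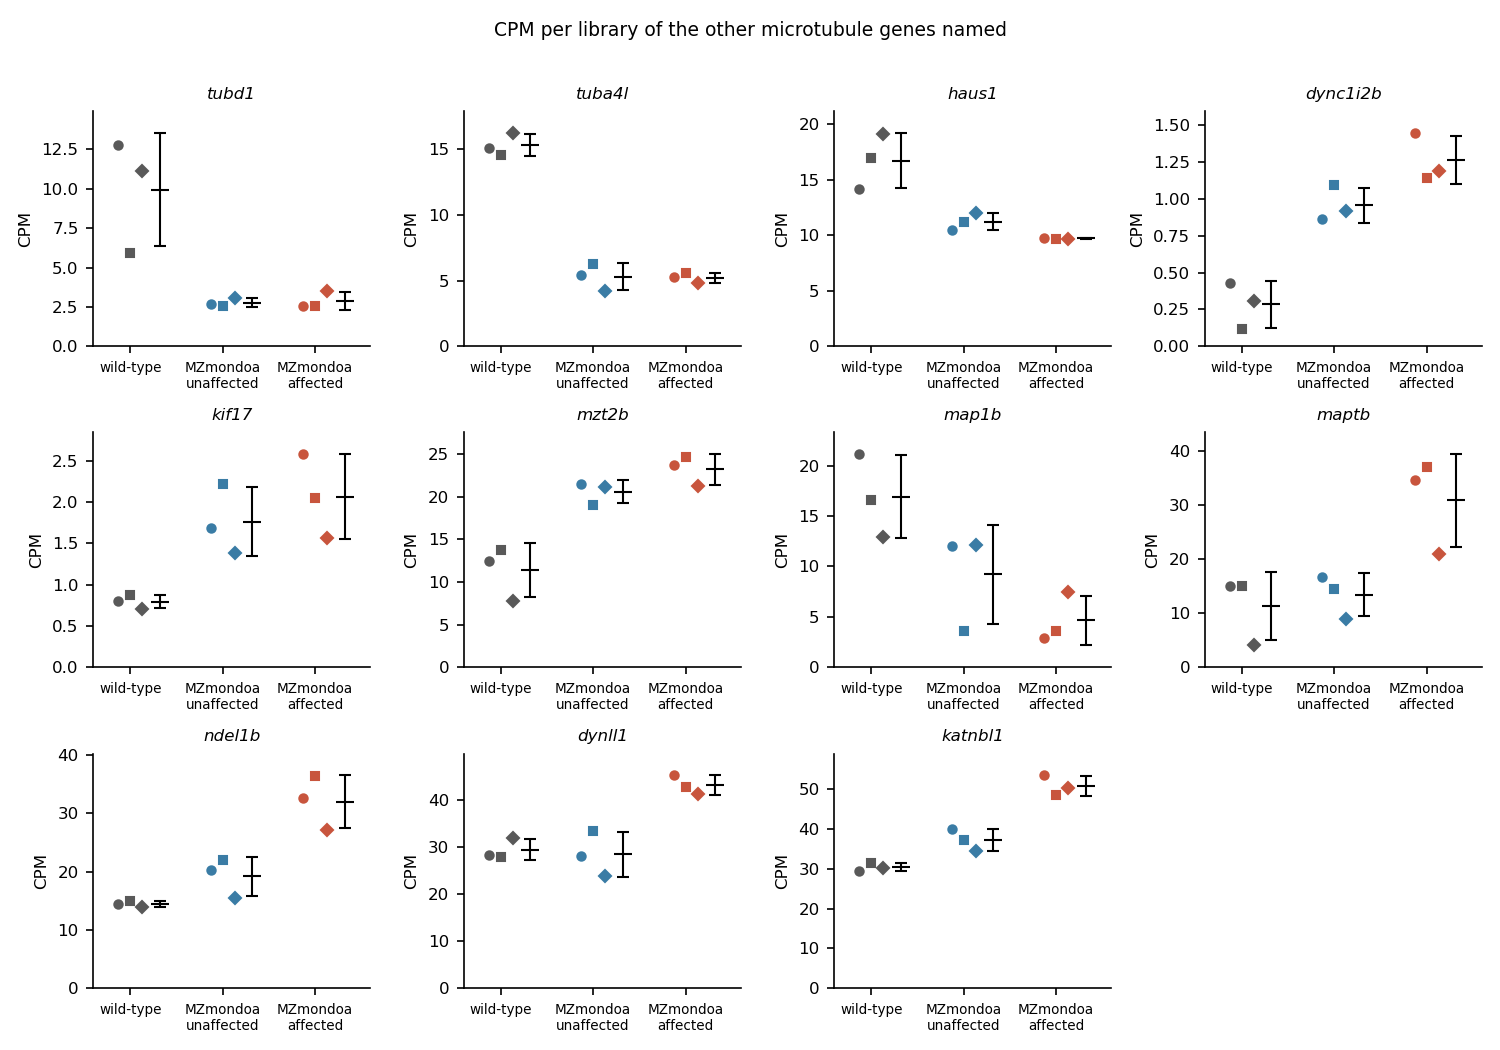
Level in CPM (vertical axes, each from 0) of the 11 other microtubule genes named in the text, by library and group. Circles, squares and diamonds are replicates 1, 2 and 3, and the black line and bars are the mean ± SD of 3 libraries; *tuba4l* is at 4.20 to 6.30 CPM in all mutant libraries against 14.6 to 16.3 CPM in the wild-type, and *ndel1b* is highest in the affected mutants, at 27.2 to 36.3 CPM.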

How the data were processed

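RNA was sequenced from 9 pools of whole embryos, 3 per group. Per the labels, reads were demultiplexed with bcl2fastq 2.17.1.14 and aligned with STAR 2.4.0i; the study's methods give another STAR release. The authors counted uniquely placed read pairs on exons of GRCz11 genes (Ensembl annotation) and deposited raw counts per gene; the use of strand in counting is not given in the sources used here, so overlapping and antisense genes cannot be told apart. The deposited counts were used as they stand, with groups from the labels. Gene lengths were not used, so shares within a family and words such as strong and weak refer to counts, not to numbers of transcripts.

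Names came from a table of Ensembl identifiers, then from the name column of the study's supplementary spreadsheet, and otherwise from the name without its final letter (*clip1a*, *mapre1a*, *stmn1b*, *kif5bb*, *mapre3* and *dctn1*).

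Genes passing filterByExpr (16962 of 32055) were fitted with edgeR 4.0.16 (R 4.3.3; TMM scaling, quasi-likelihood F test, two-sided, all 9 libraries, Benjamini-Hochberg over all genes, threshold 0.05). Standard errors are the log2 fold change divided by the root of F. Summed CPM was compared with exact permutation tests. The script was tested on simulated data. All pairs of replicates differed by more than sampling noise (chi-square per degree of freedom 9.06 to 67.7). Library 3 stood furthest from the others in each group. In the wild-type it gave 54.1 and 67.7, against 23.1 between libraries 1 and 2. In unaffected mutants it gave 38.4 and 37.5 against 9.06, and in affected mutants 19.1 and 17.2 against 12. The biological coefficient of variation was 0.176.

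Deviations from group means of same-numbered libraries correlated with r = 0.123, 0.141 and 0.268 between unaffected mutants and wild-type. Between the mutant groups r was 0.169, 0.236 and 0.462. All were over 0.1, and with this cut same-numbered libraries were also compared as pairs for the summed levels. The main fit used no block. The choice of pairs comes from the data, since the labels do not say what a number shares. Differently numbered libraries were not compared, so the correlations do not show that the numbers mark pairs. The replicate number as a block was an alternative, as were DESeq2 1.42.0, RLE factors, library size only, no filter, 10 counts in every library, only the 6 compared libraries, and leaving out each library.

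The members and the lists of other microtubule genes and markers were chosen with earlier results of these data known. Every tested member was named, with values per library for members called or with non-overlapping affected and wild-type libraries; of the other microtubule genes, up to 3 called genes with the largest rise and fall per comparison were named. Values per library for *tuba8l4*, the strong *tubb2b* row and *stmn1a* were added after they were seen. No fold changes or p-values of the authors were used.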

Additional observations from a re-analysis of the deposited data

How the results depend on the processing

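Of the alternatives to the fits of single genes, none reversed a direction that was called. In affected mutants against wild-type, *tubg1*, *clip1a*, *clip2* and *kif5bb* were called lower under every alternative run, whereas *tubb5* was lost in all 9 fits that left out a library, with RLE factors, without the filter and in the fit of the 6 compared libraries. Depth limits *stmn1b*, the weak *tubb2b* row and the weak *mapre3* row, which had at most 15, 47 and 24 counts.

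With the replicate block, 7 microtubule genes were called in unaffected mutants against wild-type (3 without it). In affected mutants against wild-type 15 were called (9 without it), and in affected against unaffected mutants 3 (1 without it). For affected mutants against wild-type the same-numbered libraries correlated with r = 0.0805, 0.113 and 0.26. The first was under the cut of 0.1, so the summed levels were not compared within pairs here. Pairing by number in the other comparisons would imply it here too, so the cut leaves the pairing undecided. The genes added by the block in this comparison were *tuba8l2* (adjusted p = 0.00688), *dync1h1* (0.00117), the strong *dctn1* row (0.0136), *kif23* (0.0166), *ckap5* (0.0181) and *mapre2* (0.0398). The other microtubule genes called under the replicate block numbered 21, 49 and 13 (8, 36 and 3 without it). Over all genes tested the replicate block raised the share called from 9.60%, 30.3% and 2.99% to 16.3%, 39.3% and 8.25%. Between the mutant groups DESeq2 called 2 microtubule genes and 5 other microtubule genes, and 7.08% of all genes tested. The fit of the 6 compared libraries alone called 0 microtubule genes between the mutant groups and 2 other microtubule genes in unaffected mutants against wild-type. Leaving out single libraries gave 0 to 4, 6 to 10 and 0 to 1 microtubule genes and 3 to 14, 18 to 35 and 0 to 5 other microtubule genes in the 3 comparisons. The cause was not tested, and the share of all genes called in the fits on fewer libraries was not set beside these counts. Scaling by library size only gave 4 higher and 8 lower microtubule genes in affected mutants against wild-type, against 4 and 5. The summed tubulin ratios moved by less than the spread between replicates in every alternative, including the paired sums and the sum with the other alpha-tubulin genes, which were chosen after seeing the data. Leaving out 1 library of 3 could hardly move a ratio by more than that spread, so those settings do not test its stability.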
